A study of Mus musculus with 7 samples.

Results

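The genes described here are the potassium channel genes of the mouse, taken as every row of the expression table whose symbol starts with Kcn, goes on with letters and then has a digit. The rule found 97 of the 24346 rows. Of these, 93 are genes of channel pores or their auxiliary subunits and 4 are RNAs antisense to such genes (*Kcnd3os*, *Kcnmb4os1*, *Kcnmb4os2* and *Kcnq1ot1*), which were tested in the same fit and are reported apart. Expression was measured by bulk RNA-seq of the cerebral cortex in 4 CrT-/y (KO) and 3 CrT+/y (WT) male mice at postnatal day 100, with 1 library per animal and no treatment. CrT-/y males are hemizygous for a deletion of exons 5 to 7 of *Slc6a8*, the X-linked gene of the creatine transporter. The CrT+/y males are wild-type littermates, and both groups are on a C57BL/6J background. The deletion is constitutive and not limited to a cell type, and the tissue was sequenced whole, so that fewer cells of a type and less RNA per cell cannot be told apart in any value given here. The replicate numbers in the labels are 0 to 3 for CrT-/y and 1 to 3 for CrT+/y, and values are listed in that order.

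Potassium channels let K+ leave or enter the cell along its gradient. Voltage-gated (Kv) channels open on depolarization and shape the action potential and the firing rate, calcium-activated and sodium-activated channels follow the ions that enter during activity, and inward rectifiers (Kir) and tandem-pore (K2P) channels carry current around the resting potential. In the cortex, fast-spiking interneurons are known for Kv1 and Kv3 channels and astrocytes for Kir4.1, which takes up the K+ that active neurons release.

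*Slc6a8* itself was at 12.4, 14.9, 14.7 and 15.7 FPKM in CrT-/y animals and at 32.3, 29.6 and 28.05 in CrT+/y animals, with a log2 fold change of -1.05 ± 0.09 (SE) and an adjusted p of 0.0024 with limma, so every library matched its label. FPKM (fragment counts scaled to exon length and to the mapped reads of the library) cover the whole gene, and the depth behind each value is unknown from the table. Some libraries stood apart. CrT+/y replicate 2 held 394 FPKM over 5 markers of choroid plexus and ependyma, of which *Ttr* made up 379, beside 7.58 to 53.8 in the other 6 libraries. The summed level of 7 striatal markers was 137 to 337 in the CrT-/y group, 293 in CrT+/y replicate 2 and 76.6 and 148 in the other CrT+/y libraries. All 7 of these markers had a log2 fold change above 0 and none was called. CrT-/y replicate 1, the library without which no channel gene was called, had the highest sum of 4 olfactory bulb markers, 16.3 FPKM beside 2.91 to 7.65 in the other 6 libraries, and 1 of the 2 tested, *Cdhr1*, was called higher. The part of these tissues in the calls was not tested. Markers of cortical excitatory neurons, inhibitory neurons and glia were above 0 in all 7 libraries.

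Potassium channel genes were measured over a wide range. Among the 93 channel and auxiliary subunit genes, 15 had a mean, taken over all libraries, of 40 FPKM or more, 29 lay between 10 and 40, 26 between 1 and 10, and 19 were above 0 but under 1 FPKM. The other 4 (*Kcne1*, *Kcnj1*, *Kcnk16* and *Kcnmb3*) were listed at 0 in all libraries. *Kcnab2*, a cytoplasmic beta subunit of Kv1 channels, had the highest mean, 142 FPKM, and *Kcnj4* with 62.7, *Kcnk1* with 51.4 and *Kcnj9* with 50.0 were among the genes that came after it. *Kcnab2* was above every other channel gene in each library, whereas the ranges over libraries overlapped between each neighbouring pair below it down to *Kcnma1* at 43.5 FPKM. The 10 highest genes took 38.1% of the summed level of the 93 genes. That sum ran from 1520 to 1588 FPKM in CrT-/y and from 1603 to 1704 FPKM in CrT+/y animals, without overlap. These sums use FPKM as deposited, and whether they stay apart when the libraries are scaled in another way was not tested. The whole set of tested genes was itself shifted in log2 fold change, by -0.03 at the median, and by 0.0036 once libraries were centred on their medians. The median coefficient of variation of the tested genes was 8.38% in CrT-/y and 10.01% in CrT+/y animals.

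Between the genotypes, 1 channel gene rose and 9 fell in the CrT-/y cortex. *Kcnj4*, an inward rectifier of forebrain neurons, rose to 141% of the CrT+/y mean. Among those that fell were *Kcnk4*, *Kcnj10*, *Kcnt2*, *Kcnj6*, *Kcna2*, *Kcng4*, *Kcnk1* and *Kcnh7*, with levels between 63.2% of the CrT+/y mean in *Kcng4* and 88.1% in *Kcnk1*. The 10 genes come from 7 subfamilies, with 3 inward rectifiers and 2 K2P channels among them. A gene was tested where its mean was at least 1 FPKM, and called where limma on log2(FPKM + 0.1) gave a Benjamini-Hochberg adjusted p under 0.1 over all 12988 genes tested. Of the 93 genes, 70 passed the filter on low values. The 10 calls are 14.3% of them, beside 10.1% of all tested genes. The 9 lower calls are 12.9% beside 7.25%, and the 1 higher call is 1.43% beside 2.90%. At an unadjusted p under 0.05, 21 of the 70 genes passed (3 higher and 18 lower), 30.0% beside 25.0% of all genes, with 4.29% beside 8.19% for higher and 25.7% beside 16.8% for lower genes. The groups did not overlap in 16 genes, which is 22.9% beside 21.6%. Of these, 2 were higher in CrT-/y animals (2.86% beside 6.57%) and 14 lower (20% beside 15.0%). The log2 fold change was below 0 in 51 of 70 genes (72.9% beside 58.2%), with a median of -0.08 beside -0.03 over all tested genes. Under the 4 other scalings of the libraries the median stayed below 0, at -0.07 to -0.04, beside -0.0023 to 0.016 over all genes. In these fits 40 to 43 of the 70 genes were below 0. They called 5 or 6 of the 72 tested rows (antisense RNAs included), 4 of them lower, beside 7.83% to 9.53% of all genes. Lower calls over all genes went from 941 in the fit as reported to between 499 and 663. The number of calls changed with single libraries, over all genes as among the channels. Without CrT-/y replicate 1 limma called no channel gene and 0.493% of all tested genes, although 18 channel genes had an unadjusted p under 0.05 and log2 fold changes such as 0.45 in *Kcnj4*, -0.50 in *Kcnk4* and -0.35 in *Kcnj10*, beside 0.49, -0.51 and -0.39 with all libraries. When CrT-/y replicate 0, 2 or 3 was left out, 4, 2 and 5 channel genes were called, beside 4.73%, 1.72% and 2.64% of all genes. When CrT+/y replicate 1, 2 or 3 was left out, 1, 10 and 15 were called, beside 1.90%, 5.81% and 28.7% of all genes.

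**Figure D1:**
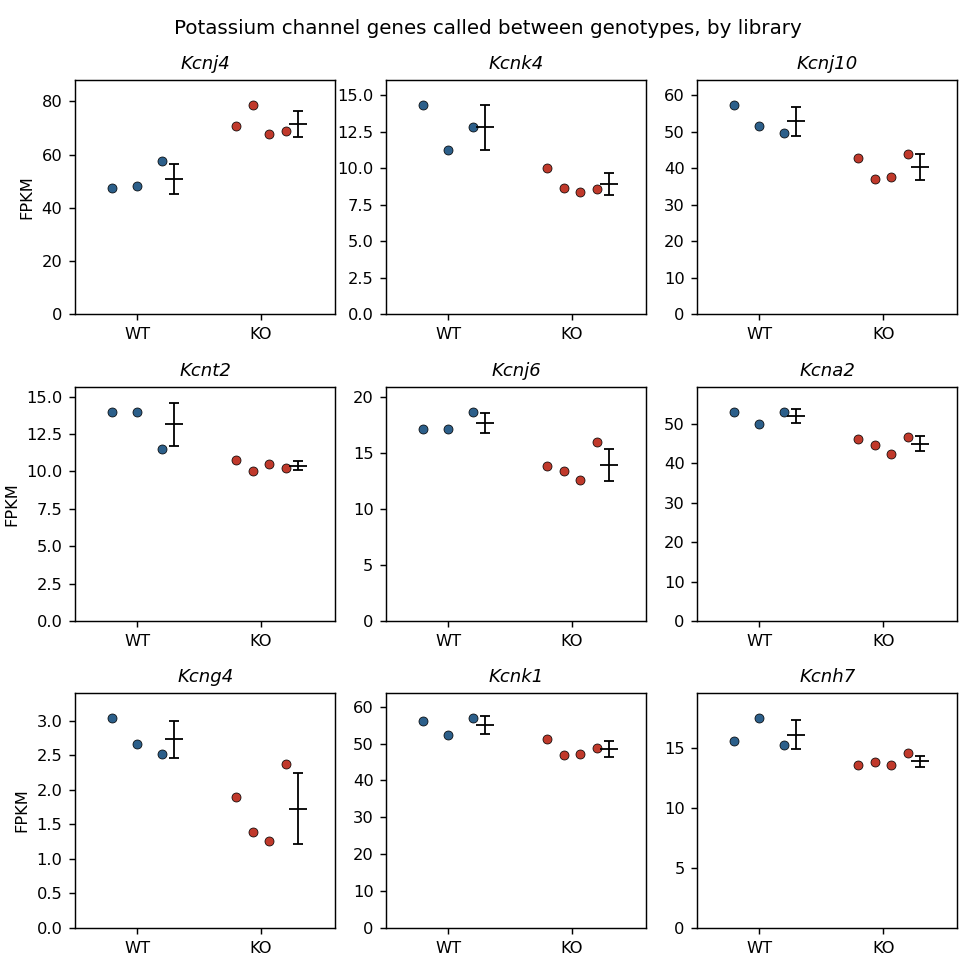
FPKM of 9 of the 10 called potassium channel genes in each CrT+/y (WT, blue, 3 libraries) and CrT-/y (KO, red, 4 libraries) animal, with the mean and SD as black bars beside the points and a linear axis from 0 in each panel. The groups do not overlap in any of the 9 panels; Kcnj4 is higher in CrT-/y animals and the other 8 are lower.

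To show the upstream regions of the genes with the smallest p values, the 100 bases before the annotated start are given for *Kcnj4*, *Kcnk4* and *Kcnj10*, from RefSeq on GRCm38.p6, on the strand of the gene, 5′ to 3′. Capitals mark a GC box (GGGCGG or CCGCCC) or a CCAAT box (CCAAT or ATTGG), both searched on both strands.
*Kcnj4* (chr15:79505242-79505341, minus strand): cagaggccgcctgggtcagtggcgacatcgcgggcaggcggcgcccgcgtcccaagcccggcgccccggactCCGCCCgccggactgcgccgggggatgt
*Kcnk4* (chr19:6934516-6934615, minus strand): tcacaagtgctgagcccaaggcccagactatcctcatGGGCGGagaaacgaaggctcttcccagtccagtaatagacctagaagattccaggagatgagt
*Kcnj10* (chr1:172341110-172341209, plus strand): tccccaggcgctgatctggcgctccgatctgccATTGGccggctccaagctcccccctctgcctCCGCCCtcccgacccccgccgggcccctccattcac

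Each of the 3 windows holds a GC box, and that of *Kcnj10* also holds a CCAAT box. The bases before the start of *Kcnj4* were 77.2% G and C over 250 bases, beside 54.8% for *Kcnk4* and 62% for *Kcnj10*. The median was 60% over the entries for tested channel genes and 60% over those for all tested genes. Over the 250 bases before the start, a GC box was found in 5 of 10 entries for 9 of the called genes and a CCAAT box in 4. Of the 73 entries for 50 of the tested channel genes, 45.21% held a GC box and 32.88% a CCAAT box, beside 57.52% and 34.57% of the entries for all tested genes and 32.74% and 33.85% of all 32851 promoters. No entry of a called gene held a TATA box (TATAAA) or a cAMP response element (TGACGTCA), which were in 4.11% and 0% of the entries for tested channel genes, 6.313% and 2.612% of those for all tested genes and 12.37% and 1.546% of all promoters. The matches describe the letters of these windows and no binding was measured.

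Among inward rectifiers, 1 gene rose, 2 fell and the other 8 tested genes were not called, where 2.90% of all tested genes were called higher and 7.25% lower. In log2 fold change 10 of the 11 were below 0, beside 58.2% of all genes, but 6 to 9 under the other scalings. *Kcnj4* encodes Kir2.3, a strong inward rectifier of the dendrites of forebrain neurons (ENSMUSG00000044216, GRCm38 chr15:79483714-79505241). Its level was 70.9, 78.7, 67.7 and 69.0 FPKM in CrT-/y animals and 47.3, 48.0 and 57.5 in CrT+/y animals, so that the lowest CrT-/y animal was above the highest CrT+/y animal. The means were 71.6 ± 4.91 and 50.9 ± 5.68 (SD, n = 4 and 3), a log2 fold change of 0.49 ± 0.08 (SE) with an adjusted p of 0.028 (limma). This call was lost in 1 of 20 other settings, without CrT-/y replicate 1, where the adjusted p was 0.105 and the log2 fold change 0.45. The highest *Kcnj4* level, 78.7 in CrT-/y replicate 1, was in the library with the highest sum of striatal markers, 337 FPKM, while CrT+/y replicate 2, with a sum of 293, had a *Kcnj4* level of 48.0. All 7 striatal markers had a log2 fold change above 0, and their part in the *Kcnj4* value was not tested. The other Kir2 genes were lower in level and were not called: *Kcnj2* (Kir2.1) was at 5.58 ± 0.654 and 5.63 ± 0.180 FPKM, and *Kcnj12* (Kir2.2) at 5.14 ± 0.527 and 5.21 ± 0.136.

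*Kcnj10* encodes Kir4.1 of astrocytes and oligodendrocytes (ENSMUSG00000044708, chr1:172341210-172374085). It was at 42.8, 37.0, 37.6 and 43.9 FPKM in CrT-/y animals and at 57.3, 51.5 and 49.5 in CrT+/y animals. It fell by 0.39 on the log2 scale (SE 0.08, adjusted p = 0.042 with limma), and the groups did not overlap. Of the fits that left out 1 library, the call was lost without CrT-/y replicate 1 (adjusted p = 0.130), CrT-/y replicate 2 (0.115) or CrT+/y replicate 1 (0.123), with log2 fold changes of -0.33 to -0.36 in those fits. *Kcnj16* encodes Kir5.1, which forms heteromers with Kir4.1, and was at 8.62 ± 0.885 and 8.90 ± 0.768 FPKM with a log2 fold change of -0.05 ± 0.10 (adjusted p = 0.788). The ratio of *Kcnj10* to *Kcnj16* within a library, which does not depend on the scaling of libraries and was chosen after the values were seen, was 4.46 to 4.92 in CrT-/y and 5.82 to 6.07 in CrT+/y animals. Of 6 astrocyte markers 5 had a log2 fold change below 0 (4 under each other scaling), none was called, and their summed level was 816 to 890 FPKM in CrT-/y and 846 to 1027 in CrT+/y animals. Relative to *Gja1*, *Slc1a3* and *Aldh1l1*, *Kcnj10* was lower in every CrT-/y than in every CrT+/y library (0.434 to 0.499 against 0.572 to 0.650 for *Gja1*, 0.219 to 0.262 against 0.286 to 0.314 for *Slc1a3* and 2.04 to 2.22 against 2.29 to 2.72 for *Aldh1l1*). Relative to *Aqp4*, *Slc1a2* and *Gfap* the groups overlapped. These ratios too were chosen after the values were seen, for a gene already called lower. All 6 oligodendrocyte markers had a log2 fold change below 0 (5 with quantile normalization) and none was called, with sums of 854 to 1310 FPKM in CrT-/y and 1186 to 1557 in CrT+/y animals. The part of either cell type in the result was not tested.

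The Kir3 (GIRK) channels are gated by G proteins and opened by Gi-coupled receptors through Gβγ. *Kcnj6* (GIRK2, ENSMUSG00000043301, chr16:94748636-94997701) was at 13.8, 13.4, 12.6 and 15.9 FPKM in CrT-/y animals and at 17.1, 17.2 and 18.7 in CrT+/y animals. It fell by 0.34 on the log2 scale (SE 0.08, adjusted p = 0.058 with limma) with no overlap of the groups. *Kcnj3* (GIRK1), the usual partner of the other GIRK subunits, was at 43.1 ± 1.47 and 47.9 ± 7.40 FPKM (log2 fold change -0.14 ± 0.09) and *Kcnj9* (GIRK3) at 49.6 ± 1.07 and 50.7 ± 6.82 (-0.02 ± 0.09), and neither was called. The differences between the 3 genes were not tested. Of the fits that left out 1 library, the call of *Kcnj6* was lost without CrT-/y replicate 0, 1 or 2 or CrT+/y replicate 1, with adjusted p values of 0.111 to 0.156 at log2 fold changes of -0.36 to -0.30. *Kcnj8* and *Kcnj11*, the pores of ATP-sensitive channels that open when ATP falls, had log2 fold changes of -0.09 ± 0.15 and -0.16 ± 0.16, with adjusted p values of 0.739 and 0.580. *Kcnj11* was at 19.2, 15.9, 13.8 and 21.4 FPKM in CrT-/y and at 21.1, 15.6 and 21.8 in CrT+/y animals, a spread as wide in either group as the difference. *Kcnj8*, known from pericytes, was at 1.72 ± 0.273 and 1.82 ± 0.113 FPKM. *Kcnj13* (Kir7.1), a channel of choroid plexus epithelium that is named after its values were seen, was at 7.66 FPKM in CrT+/y replicate 2, the library with the high *Ttr*, and at 0.579 to 1.42 in the other 6.

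**Figure D2:**
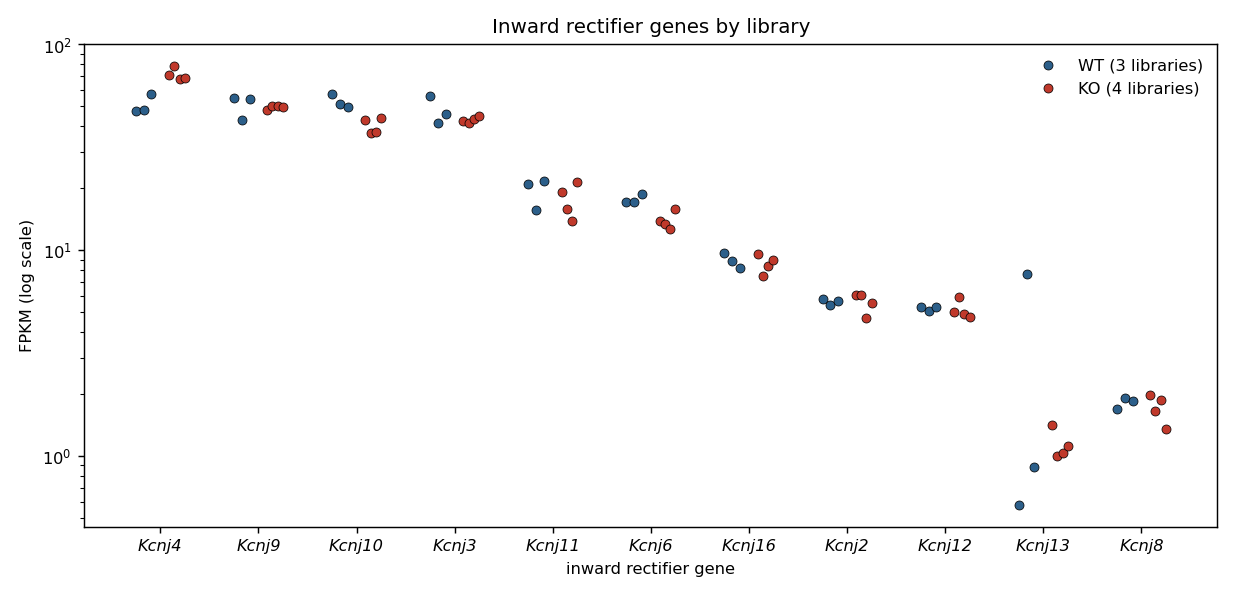
FPKM of the 11 tested inward rectifier genes on a log axis, with 1 point per library (WT blue, 3; KO red, 4). Kcnj4 is higher in all CrT-/y than in all CrT+/y libraries, Kcnj10 and Kcnj6 are lower in all of them, and the 7.66 FPKM of CrT+/y replicate 2 stands alone in Kcnj13.

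Of the K2P channels, which set the resting potential as leak conductances, 2 of 9 tested genes fell and none rose, beside 7.25% and 2.90% of all genes. The log2 fold change was below 0 in 6 of 9, a share near the 58.2% of all genes, with a median of -0.18 beside -0.03. *Kcnk4* encodes TRAAK, a leak channel opened by membrane stretch and arachidonic acid (ENSMUSG00000024957, chr19:6923966-6934515). It was at 10.02, 8.67, 8.39 and 8.56 FPKM in CrT-/y animals and at 14.3, 11.2 and 12.8 in CrT+/y animals, without overlap. It fell by 0.51 on the log2 scale (SE 0.10, adjusted p = 0.034 with limma). The call was lost in 2 of 20 other settings, those that left out CrT-/y replicate 1 (adjusted p = 0.114) or CrT+/y replicate 1 (0.1004). *Kcnk2* and *Kcnk10*, the TREK genes most related to it, were at 24.9 ± 1.34 and 23.6 ± 2.59 FPKM and at 1.95 ± 0.187 and 1.84 ± 0.199, with log2 fold changes of 0.08 ± 0.08 and 0.08 ± 0.13 (adjusted p = 0.559 and 0.725). *Kcnk1* (TWIK1), the K2P gene of highest level, was at 51.3, 46.8, 47.1 and 48.9 FPKM in CrT-/y and at 56.2, 52.3 and 56.8 in CrT+/y animals. It fell by 0.18 on the log2 scale (SE 0.06, adjusted p = 0.097) and kept the call in 5 of 20 other settings. The acid-sensitive *Kcnk3* and *Kcnk9* had log2 fold changes of -0.15 ± 0.10 and 0.03 ± 0.08 and were not called. *Kcnk12* and *Kcnk13*, the THIK genes, are named after their values were seen. *Kcnk12* was at 9.10 ± 0.957 and 11.3 ± 1.33 FPKM and *Kcnk13*, known from microglia, at 1.98 ± 0.364 and 2.62 ± 0.275, with adjusted p values of 0.117 and 0.164.

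Of the Kv1 to Kv4 pores, which carry the delayed rectifier and A-type currents, 2 of 15 tested genes fell and none rose, beside 7.25% and 2.90% of all genes. *Kcna2* (Kv1.2), a low-threshold channel of axons, was at 46.3, 44.6, 42.4 and 46.6 FPKM in CrT-/y animals and at 52.9, 50.1 and 53.1 in CrT+/y animals. It fell by 0.21 on the log2 scale (SE 0.05, adjusted p = 0.065 with limma), without overlap. It kept this call in 8 of 20 other settings and lost it under each of the 4 other scalings, at log2 fold changes of -0.13 to -0.17. *Kcna1* (Kv1.1), which forms heteromers with Kv1.2, was at 37.5 ± 2.15 and 42.3 ± 1.53 FPKM without overlap (-0.17 ± 0.06, adjusted p = 0.127). *Kcnb2* was at 4.26 ± 0.273 and 4.65 ± 0.362 (-0.12 ± 0.09). *Kcna5* (Kv1.5), named after its values were seen, was at 2.62, 2.87, 3.07 and 1.98 FPKM in CrT-/y and at 0.851, 2.60 and 1.15 in CrT+/y animals, and the adjusted p of its log2 fold change of 0.87 ± 0.32 was 0.135. Without CrT+/y replicate 2, its adjusted p was 0.039 at a log2 fold change of 1.31. The median log2 fold change over the 6 tested Kcna genes, -0.04, turned above 0 under all 4 other scalings, so no direction is given for the subfamily.

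Of the Kv3 genes, whose channels allow fast spiking, *Kcnc1*, *Kcnc2* and *Kcnc4* were below 0 in log2 fold change in the fit as reported and were not called, and *Kcnc4* turned above 0 under each of the 4 other scalings. *Kcnc1* (Kv3.1) was at 43.9 ± 3.39 and 50.5 ± 4.39 FPKM (-0.20 ± 0.08, adjusted p = 0.165), and *Kcnc2* (Kv3.2) at 27.0 ± 1.44 and 29.8 ± 2.72 (-0.14 ± 0.07, adjusted p = 0.276). *Kcnc4* (Kv3.4) was at 32.5 ± 2.16 and 33.0 ± 3.46. *Pvalb*, the marker of fast-spiking interneurons, was at 31.3, 20.9, 18.0 and 40.4 FPKM in CrT-/y and at 37.3, 30.7 and 48.9 in CrT+/y animals (adjusted p = 0.235). Of 6 inhibitory neuron markers, 2 had a log2 fold change below 0, *Pvalb* among them, and 4 above 0, with *Gad1* called higher. Their summed level was 842 to 981 FPKM in CrT-/y and 907 to 926 in CrT+/y animals. The part of these markers in the Kv3 values was not tested. The 3 Kv4 genes, pores of the A-type current of dendrites, had log2 fold changes above 0 under every scaling and none was called. *Kcnd2* was at 30.4 ± 2.71 and 28.1 ± 1.87 FPKM (0.11 ± 0.08, adjusted p = 0.408), *Kcnd3* at 17.2 ± 0.400 and 16.3 ± 1.05, and *Kcnd1* at 3.84 ± 0.408 and 3.31 ± 0.0853. Of 7 excitatory neuron markers all had a log2 fold change below 0 (6 under each other scaling), with 2 called lower, *Neurod6* among them, and their summed level was 738 to 824 FPKM in CrT-/y and 738 to 897 in CrT+/y animals. Their part in the values of the neuronal channels was not tested.

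Modifier alpha subunits make no channel on their own and change the gating of Kv2 pores. Of 9 tested, 1 fell, a share close to the 7.25% of all genes that were called lower. *Kcng4* (Kv6.4) was at 1.89, 1.39, 1.26 and 2.37 FPKM in CrT-/y animals and at 3.03, 2.65 and 2.51 in CrT+/y animals. It fell by 0.67 on the log2 scale (SE 0.20, adjusted p = 0.0945 with limma), the largest fitted fall of a called channel gene at the lowest level of them. It kept the call in 4 of the 19 other settings in which it was tested, with log2 fold changes of -0.83 to -0.47. *Kcnv1* (Kv8.1) was at 32.9, 31.1, 31.2 and 32.7 FPKM in CrT-/y and at 45.4, 33.6 and 38.5 in CrT+/y animals, with a log2 fold change of -0.28 ± 0.09 and an adjusted p of 0.106. It was called lower without CrT+/y replicate 2 (adjusted p = 0.057) or replicate 3 (0.095), with array weights (0.089) and with a minimum of 5 FPKM (0.093). Those fits called 5.81%, 28.7%, 14.6% and 14.5% of all tested genes, in that order. *Kcnf1* (Kv5.1) was at 39.5 ± 1.07 and 40.6 ± 1.40 FPKM, *Kcns1* (Kv9.1) at 10.2 ± 0.988 and 11.9 ± 1.71, and *Kcng1* (Kv6.1) at 8.11 ± 0.802 and 8.76 ± 1.67, with adjusted p values of 0.648, 0.263 and 0.669.

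The Kv7 genes carry the M-current, which is shut by muscarinic receptors and limits repetitive firing. *Kcnq3* was at 26.0 ± 1.36 and 25.0 ± 2.36 FPKM (0.06 ± 0.08) and *Kcnq5* at 24.9 ± 1.40 and 26.2 ± 2.83 (-0.07 ± 0.08), and neither was called. Of 6 tested genes of the ether-a-go-go family, 1 fell, beside 7.25% of all genes. *Kcnh7* (Erg3) was at 13.6, 13.9, 13.7 and 14.6 FPKM in CrT-/y and at 15.6, 17.5 and 15.3 in CrT+/y animals, and fell by 0.21 on the log2 scale (SE 0.06, adjusted p = 0.098 with limma). It kept the call in 5 of 20 other settings, and its exons overlap those of *Gca* on the opposite strand, a gene at 8.88 FPKM in CrT-/y and 11.2 in CrT+/y animals. *Kcnh3* (Elk2), the highest of the family, was at 47.6 ± 0.792 and 47.7 ± 5.58 FPKM and *Kcnh2* (Erg1) at 10.5 ± 0.931 and 11.4 ± 0.71, with adjusted p values of 0.979 and 0.396.

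None of the 8 tested auxiliary subunits of Kv channels was called, where 10.1% of all tested genes were. Their means over all libraries ran from 2.47 FPKM in *Kcne1l* to 142 in *Kcnab2*. *Kcnab2* was at 142, 138, 141 and 145 FPKM in CrT-/y and at 145, 127 and 155 in CrT+/y animals (-0.01 ± 0.07, adjusted p = 0.967). *Kcnip2*, which traffics Kv4 pores, was at 45.1 ± 2.77 and 46.1 ± 1.29, *Kcnip3* at 40.8 ± 1.39 and 42.9 ± 3.56, and *Kcnip4* at 36.7 ± 3.57 and 43.7 ± 7.53. The high value of *Kcnip4* was that of 1 library, 52.0 FPKM in CrT+/y replicate 1. *Kcnip4* was called lower without CrT+/y replicate 3 only (limma, adjusted p = 0.069), where 28.7% of all tested genes were called. *Kcnab1*, known from striatum and hippocampus as well as cortex, was at 52.8 FPKM in CrT+/y replicate 2 and at 35.0 and 41.0 in the other CrT+/y libraries, beside 32.4 to 48.2 in CrT-/y animals. *Kcne1l*, a single-pass subunit, was higher in every CrT-/y animal, at 2.60 ± 0.105 against 2.30 ± 0.117 FPKM, with a log2 fold change of 0.17 ± 0.10 and an adjusted p of 0.311. *Kcne2*, a subunit known from choroid plexus that was not tested, was at 2.37 FPKM in CrT+/y replicate 2 and at 0.067 to 0.217 in the other 6 libraries. *Kcnab1*, *Kcne2*, *Kcnip3* and *Kcnip4* are named after their values were seen.

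The sodium-activated channels of the Slo family had opposite signs. *Kcnt2* (Slick) was at 10.7, 10.03, 10.5 and 10.2 FPKM in CrT-/y animals and at 14.0, 14.0 and 11.5 in CrT+/y animals, and fell by 0.33 on the log2 scale (SE 0.08, adjusted p = 0.058 with limma). Of the fits that left out 1 library, the call was lost without CrT-/y replicate 1, 2 or 3 or CrT+/y replicate 1 or 2, with adjusted p values of 0.120 to 0.160 at log2 fold changes of -0.34 to -0.29. *Kcnt1* (Slack), with which it forms heteromers, was at 26.5, 26.9, 22.4 and 26.6 FPKM and at 23.7, 21.7 and 21.1, with a log2 fold change of 0.20 ± 0.08 and an adjusted p of 0.152, and was called higher under upper quartile scaling (0.0999) and with a correction for transcript length (0.083). The ratio of *Kcnt1* to *Kcnt2* within a library, chosen after the values were seen, was 2.46, 2.68, 2.14 and 2.60 in CrT-/y and 1.70, 1.55 and 1.84 in CrT+/y animals. *Kcnma1*, the pore of the large-conductance calcium-activated (BK) channel, was at 41.9 ± 1.42 and 45.7 ± 2.33 FPKM (-0.12 ± 0.06, adjusted p = 0.206). *Kcnmb4*, its neuronal beta subunit, was at 26.1, 29.1, 27.6 and 26.7 FPKM in CrT-/y and at 35.2, 30.2 and 29.2 in CrT+/y animals, with a log2 fold change of -0.20 ± 0.07 and an adjusted p of 0.142. Both were called lower only without CrT+/y replicate 3 (limma, adjusted p = 0.051 and 0.049), where 28.7% of all tested genes were called. The antisense RNAs *Kcnmb4os1* and *Kcnmb4os2*, whose exons overlap *Kcnmb4*, were at 5.99 ± 0.468 and 5.55 ± 1.01 and at 13.6 ± 1.48 and 15.5 ± 3.30 FPKM and were not called. Whether reads were counted by strand is not given in the sources used here, so the level of a gene with such a partner (*Kcnh7*, *Kcnj6*, *Kcnk1* and *Kcnt2* among the called genes) is uncertain to that extent. The partner of *Kcnt2*, *4930590L20Rik*, was at 0.028 FPKM in CrT-/y and 0.106 in CrT+/y animals, and those of *Kcnj6* and *Kcnk1* were not measured. Of the small-conductance channels that follow a spike with a hyperpolarization, *Kcnn2* (SK2) was at 11.5 ± 1.13 and 13.6 ± 0.638 FPKM (-0.25 ± 0.08, adjusted p = 0.113). *Kcnn3* (SK3), named after its values were seen, was at 3.52 ± 0.165 FPKM in CrT-/y and at 2.60, 3.95 and 2.64 in CrT+/y animals, and was called higher without CrT+/y replicate 2 (log2 fold change 0.41, adjusted p = 0.078).

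**Figure D3:**
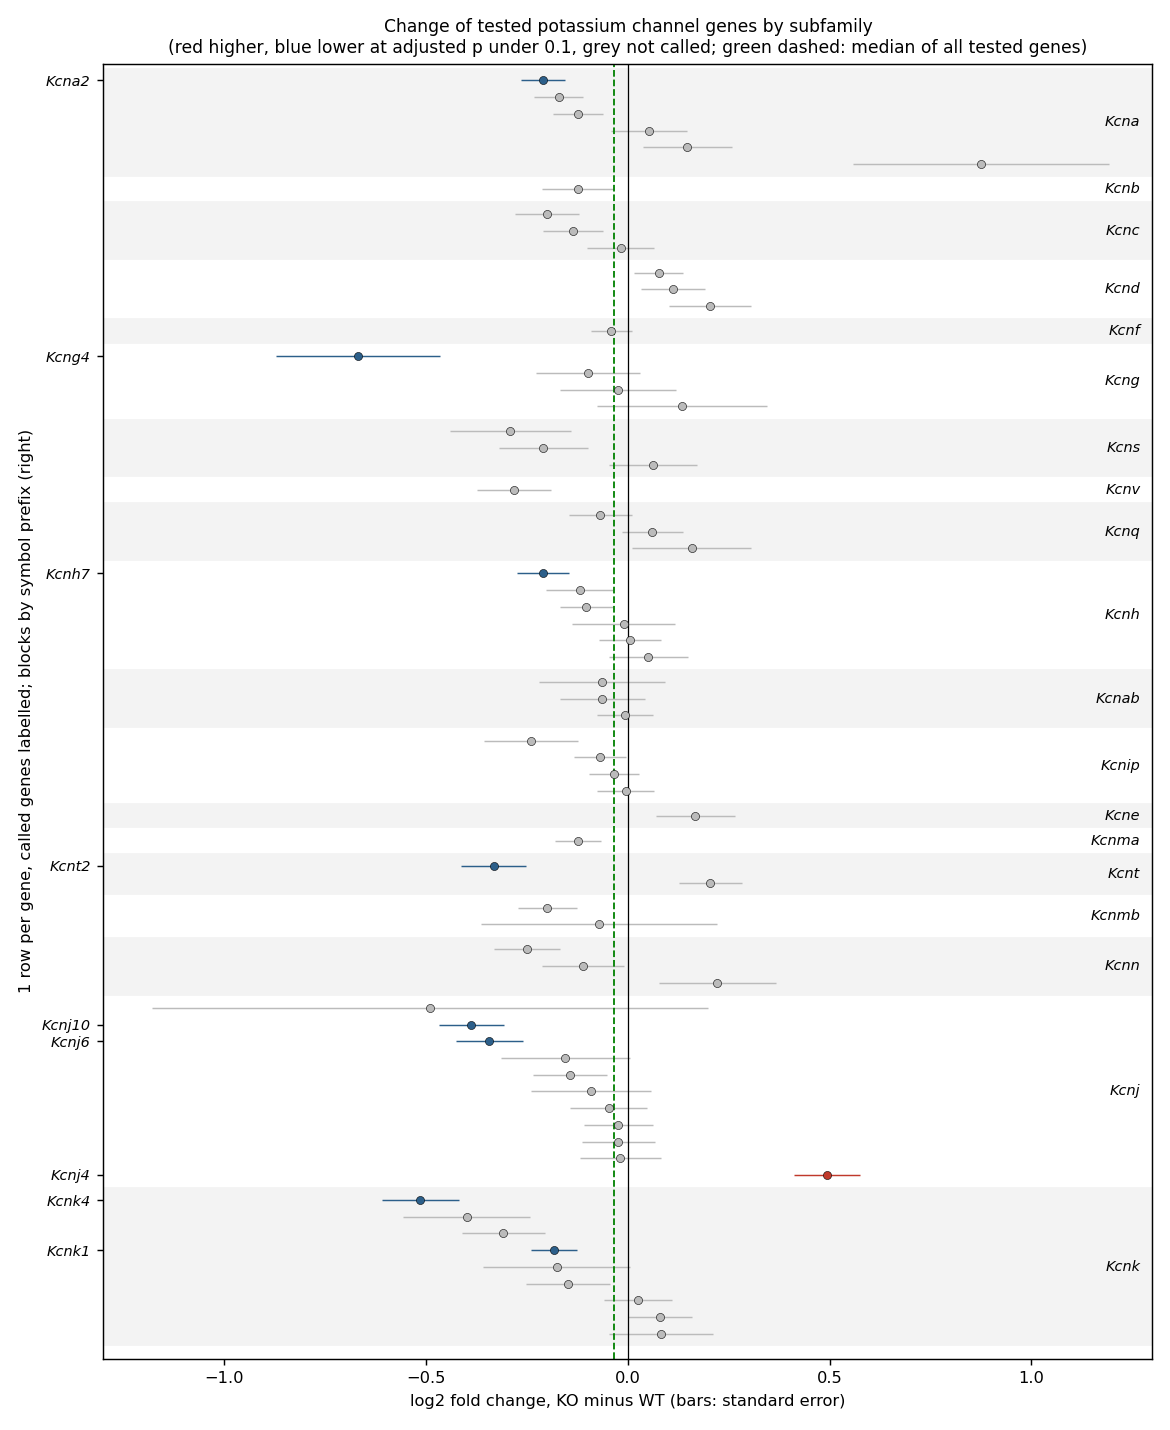
Log2 fold change (CrT-/y minus CrT+/y) of 67 of the 70 tested potassium channel and auxiliary subunit genes, blocked by symbol prefix, with the standard error as bars, called genes in red (higher) or blue (lower) and the median of all tested genes, -0.03, as a green dashed line. Kcnj4 is the only red point, the blue points are spread over 6 prefixes, and Kcng4, Kcnk4, Kcnj10 and Kcnj6 lie farthest to the left among them.

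Some of the channel genes lie side by side in the genome, and the differences between neighbours were not tested. On GRCm38, *Kcnj9* and *Kcnj10* are 11.9 kb apart on chromosome 1 and had log2 fold changes of -0.02 and -0.39. *Kcna2* and *Kcna3* are 63.1 kb apart on chromosome 3, with -0.21 and 0.05, the second of them not called (adjusted p = 0.760). *Kcna1* lies between *Kcna5* and *Kcna6* on chromosome 6, with log2 fold changes of -0.17, 0.87 and -0.12, and none of these 3 was called. *Kcnj2* and *Kcnj16*, 38.2 kb apart on chromosome 11, had -0.02 and -0.05.

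Of 23 genes that act with these channels or beside them (binding partners, scaffolds and the HCN channels), 21 were tested. Of these, 3 fell and 1 rose, beside 7.25% and 2.90% of all genes. The 4 calls are 19.0%, beside 10.1% of all tested genes, and 16 of the 21 had a log2 fold change below 0, beside 58.2%. *Hcn4*, a pore of the hyperpolarization-activated current, rose at a low level, from 0.953, 1.47 and 0.981 FPKM in CrT+/y to 1.63, 2.01, 1.55 and 1.86 in CrT-/y animals, by 0.61 on the log2 scale (SE 0.18, adjusted p = 0.089 with limma). It kept the call in 9 of the 19 other settings in which it was tested. *Hcn2* and *Hcn3* had log2 fold changes of -0.11 ± 0.06 and -0.17 ± 0.10 and were not called. *Lgi1*, a secreted protein that regulates Kv1 channels and is mutated in a familial epilepsy, was at 44.2, 41.3, 43.8 and 44.3 FPKM and at 55.3, 50.1 and 51.4, and fell by 0.27 (SE 0.06, adjusted p = 0.042). *Epb41l3*, listed under its older symbol *Epb4.1l3*, codes for the protein 4.1B that anchors Kv1 channels beside the nodes of myelinated axons. It was at 51.2, 48.0, 48.7 and 50.0 FPKM and at 65.0, 59.2 and 56.6, and fell by 0.28 (SE 0.06, adjusted p = 0.042). The groups did not overlap in 7 of the 21 tested partners, the 4 called ones among them (33.3% beside 21.6% of all tested genes). All 4 calls were lost without CrT-/y replicate 1, CrT-/y replicate 2 or CrT+/y replicate 1, where limma called 0 of the 21, 6 had an unadjusted p under 0.05, and 0.493%, 1.72% and 1.90% of all genes were called. In those 3 fits the log2 fold change was -0.27 to -0.23 in *Lgi1*, -0.28 to -0.23 in *Epb4.1l3* and 0.51 to 0.67 in *Hcn4*. Without CrT-/y replicate 3 only *Lgi1* was called, and *Hcn4* was not called without CrT-/y replicate 0 or CrT+/y replicate 3. *Cntnap2*, *Cntn2* and *Adam22*, also Kv1 partners, had log2 fold changes of 0.01, -0.07 and -0.07 with adjusted p values of 0.424 or more. The scaffold genes *Dlg2* and *Dlg4* had -0.24 ± 0.08 and -0.13 ± 0.07 (limma, adjusted p = 0.115 and 0.267). *Dlg2* was lower in every CrT-/y library, and was called lower with array weights and without CrT+/y replicate 3. Those fits called 14.6% and 28.7% of all tested genes. *Abcc8* and *Abcc9*, the sulfonylurea receptors of the ATP-sensitive channels, were at 9.34 ± 0.364 and 8.72 ± 0.724 FPKM and at 2.11 ± 0.218 and 2.50 ± 0.0731, with adjusted p values of 0.431 and 0.230.

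The 23 channel and auxiliary subunit genes under 1 FPKM entered no test. The highest of them was *Kcnh6* with a mean of 0.816 FPKM, and *Kcnj14* (0.769) and *Kcnu1* (0.708) followed. *Kcnq1*, *Kcnj5* and *Kcnn4*, better known from heart and epithelia or blood cells, were at 0.196, 0.255 and 0.136 FPKM.

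The 10 calls differed in how far they held over 20 other settings of the fit. *Kcnj4* kept its call in 19, *Kcnk4* in 18, *Kcnj10* in 16, *Kcnj6* in 15 and *Kcnt2* in 13. The other 5, with *Kcna2*, *Kcnk1*, *Kcnh7* and *Kcng4* among them, kept theirs in 9 or fewer. The first 5 were called under all 4 other scalings and the other 5 under none of them. Each of the 10 kept its direction in every setting in which it was tested. Members have longer transcripts than other genes, with a median of 3753.5 against 3087.5 bases. Under a correction of each library for transcript length 6 members were called, 2 higher and 4 lower, beside 9.53% of all tested genes.

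**Figure D4:**
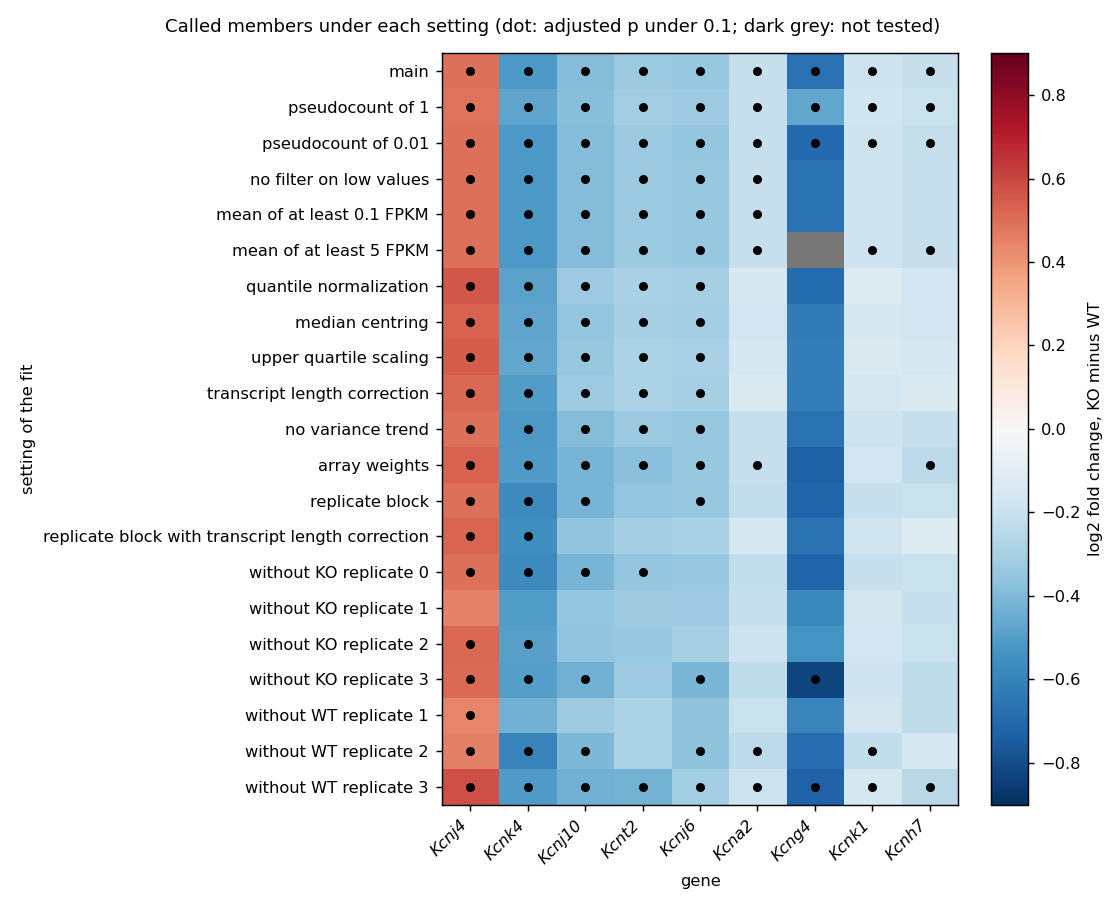
Log2 fold change (colour, blue lower and red higher in CrT-/y) of 9 of the 10 called genes under the fit as reported and the 20 other settings, with a dot where the adjusted p is under 0.1 and dark grey where the gene was not tested (Kcng4 with a minimum of 5 FPKM). No column changes colour, the dots of Kcnj4 miss 1 setting, and the row without CrT-/y replicate 1 has no dot.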

How the data were processed

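Total RNA of the cerebral cortex of 4 CrT-/y and 3 CrT+/y animals was sequenced with 1 library per animal, and groups were taken from the sample labels. The authors aligned paired reads to mm10 with the Tuxedo protocol (the submitters' processing notes name Bowtie and Cuffnorm, with no version), kept unique alignments to known exons or junctions that had up to 2 mismatches, and deposited a single table of FPKM, scaled by them for exon length and library size. FPKM are not counts, so no count model was used. The paper reports the number of reads for each replicate, but the fragments behind a value were not worked out here.

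In this work, 0.1 was added to FPKM, log2 was taken (which understates changes of genes near 1 FPKM), genes averaging 1 FPKM or more were kept, and limma 3.58.1 (R 4.3.3) was fitted on genotype with a variance trend and Benjamini-Hochberg adjustment over 12988 genes, calling at an adjusted p under 0.1. The fit was tested on simulated data with independent errors for each gene, so effects shared by the genes of a library were not covered. Tables were made with Python 3.11.15, pandas 2.3.3 and numpy 2.4.6, and figures with matplotlib 3.10.9. Positions are from GENCODE M21 (GRCm38) and promoters from RefSeq (GRCm38.p6).

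The members, the partner and marker lists and the rule for named genes were chosen with earlier results of these data known. The rule names every called member, the highest member of each subfamily, *Kcna1*, *Kcna2*, *Kcnc1*, *Kcnc2*, *Kcnj8*, *Kcnj10*, *Kcnj11* and *Kcnj16*, *Slc6a8*, *Abcc8*, *Abcc9* and every called partner, and a few of the genes it covers are not reported here by name or in the figures. Where a gene outside it is given with its values, it was added after they were seen. Of the marker lists, 1 of 6 inhibitory neuron markers was called higher (*Gad1*), 2 of 4 endothelial (*Flt1* and *Pecam1*) and 1 of 4 mural markers (*Rgs5*) were called lower, 1 olfactory bulb marker (*Cdhr1*) was called higher, and none was called among oligodendrocyte precursor, microglia, thalamus and hippocampus markers.

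Alternatives were a pseudocount of 1 or 0.01, a minimum mean of 0.1 or 5 FPKM or none, median centring, quantile normalization, upper quartile scaling, a transcript length correction, moderation with no variance trend, array weights, the replicate number as a block (also together with the length correction), and leaving out each library.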

Additional observations from a re-analysis of the deposited data

Results flagged for a closer look

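In CrT-/y replicate 2, *Kcnt1* was at 22.4 FPKM, away from the other 3 CrT-/y libraries at 26.5 to 26.9. The gap to the nearest of them was 0.896 of the group's range, above the critical value of Dixon's test for 4 samples. Of 38 genes examined in the CrT-/y group this was 1, and chance marks about 1 in 20.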

How the results depend on the processing

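The fit as reported called 10 channel genes and 4 partner genes. Of channel genes, quantile normalization and median centring called 5 each, beside 8.34% and 7.83% of all genes. Upper quartile scaling, the transcript length correction and the fit without a variance trend called 6 each, beside 8.49%, 9.53% and 7.12%. Leaving out 1 library gave between 0 and 15 channel calls, beside 0.493% to 28.7% of all genes. Partner calls were 0 to 4 with 1 library left out. The median log2 fold change of -0.08 over the channel genes was -0.045 with median centring, -0.035 with upper quartile scaling and -0.043 with the length correction, and -0.10 to -0.06 with 1 library left out. Over all tested genes the median was -0.033 as reported, and 0.0036, 0.016 and 0.0020 under those scalings in the same order. *Slc6a8* was called in all 20 alternatives, at -1.10 to -0.94. Over all genes, the fit as reported called 377 higher and 941 lower, beside 528 and 555 with quantile normalization, 490 and 527 with median centring, 604 and 499 with upper quartile scaling and 575 and 663 with the length correction. With 1 library left out, 64 (without CrT-/y replicate 1) to 3736 (without CrT+/y replicate 3) genes were called.

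The labels do not say whether equal replicate numbers pair the animals. Deviations of the same-numbered libraries 1 to 3 from their group means had correlations of -0.08, 0.05 and -0.05, which cannot decide this. With the replicate numbers as a block, without CrT-/y replicate 0, 4 channel genes and 1 partner gene were called, beside 4.49% of all genes. With the length correction as well, 2 and 0 were called, beside 2.82% of all genes. In that last fit 4 of 21 partner genes had an unadjusted p under 0.05 with limma.

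Of 735 values of named genes under alternatives, 586 kept direction and side of the threshold, 113 lost the call, 12 gained it and 24 changed sign, all of the last in genes that were not called. *Kcnf1* turned to 0.014 with quantile normalization, 0.0086 with upper quartile scaling, 0.015 with the length correction and 0.019 with block and length correction. *Kcnab2* turned to 0.0018, 0.031 (median centring), 0.043, 0.043 and 0.042 in the same order, and to 0.023 with array weights. *Kcnip2* turned to 0.029 with quantile normalization, 0.0026 with median centring and 0.015 with upper quartile scaling, and *Kcnj16* to 0.0014 with the last. With 1 library left out, the log2 fold change spanned 0 in *Kcnab2* -0.085 to 0.057, *Kcnip2* -0.059 to 0.0064, *Kcnj16* -0.11 to 0.015, *Kcnh3* -0.096 to 0.063, *Kcnj8* -0.16 to 0.011 and *Kcng1* -0.24 to 0.033. The causes were not tested. With a minimum of 5 FPKM, *Kcng4*, *Hcn4* and *Abcc9* were not tested. The counting error of low genes such as *Kcng4* was not estimated.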
